A study of Rattus norvegicus with 8 samples.

Results

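The genes described here are 40 cell cycle and proliferation genes of the rat: 19 that act in G1, at the G1/S transition or in DNA replication, and 21 that act in G2 and mitosis. The list is one of established cell cycle genes, given by gene symbol. On the arrays, 37 of the 40 had a probe whose RefSeq accession belonged to the gene, and 32 of those were bright enough to be tested among 12366 genes. Mcm5, Bub1b and Top2a had no probe named in this way.

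Kidney RNA was measured on 4 arrays from male rats given 30 mg/kg colistin and on 4 from male rats given saline, all labelled as 10 weeks of age and sampled at day 28. Colistin, an antibiotic of the polymyxin class, can injure kidney tubules. No label gives the rats' strain, the dosing schedule, or whether the samples are from different rats. The p-values therefore describe only how much these 4 and 4 samples varied, which may in part be technical. The tissue is labelled kidney, although the title of the series refers to injured renal tubules, and 8 of 8 proximal tubule markers were well above background on all 8 arrays.

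Cells enter the cycle when D-type cyclins with CDK4 and then E-type cyclins with CDK2 inactivate the retinoblastoma protein and free E2F factors, which turn on genes for origin licensing, nucleotide supply and replication. A later wave, driven by the B-MYB and FOXM1 proteins on DREAM complex promoters, makes the cyclins, kinases and spindle proteins of G2 and mitosis. Adult tubule cells are mostly quiescent, and after injury surviving cells can re-enter the cycle, which is why these genes are read as marks of repair in kidney tissue.

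Promoter letters differed between the G1/S and G2/M members, and 5 promoters are shown so that this can be read beside the values. The windows, from RefSeq on GRCr8, run from 250 bases before to 50 bases after the gene start, and 13 G1/S and 17 G2/M members had a window. Letters were searched on both strands: CCAAT, the core bound by NF-Y; TTTGAA, the core of the cell cycle homology region; and an E2F core written as TTTCCCGC, TTTCGCGC, TTTGCCGC or TTTGGCGC. The E2F core was found in 7 of 13 G1/S windows (53.8%) and 1 of 17 G2/M windows (5.88%), against 2.14% of all 33468 windows. TTTGAA was found in 1 of 13 G1/S windows (7.69%) and 12 of 17 G2/M windows (70.6%), against 18.3% of all windows. CCAAT was found in 61.5% of G1/S windows and 82.4% of G2/M windows, against 37.5% of all. A match is a description of the letters and does not show that a factor binds there. In the sequences below capitals mark every match on either strand. Where matches touch or overlap, as the E2F core and CCAAT do in Mcm7, they form 1 run.
Mcm7, chr12:22163129-22163428, minus strand: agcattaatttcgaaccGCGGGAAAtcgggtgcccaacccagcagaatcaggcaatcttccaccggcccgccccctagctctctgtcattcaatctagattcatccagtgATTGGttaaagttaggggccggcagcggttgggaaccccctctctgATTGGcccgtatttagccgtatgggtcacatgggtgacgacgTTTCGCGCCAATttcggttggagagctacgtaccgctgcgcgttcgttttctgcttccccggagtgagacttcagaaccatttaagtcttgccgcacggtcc
Mcm3, chr9:30733697-30733996, minus strand: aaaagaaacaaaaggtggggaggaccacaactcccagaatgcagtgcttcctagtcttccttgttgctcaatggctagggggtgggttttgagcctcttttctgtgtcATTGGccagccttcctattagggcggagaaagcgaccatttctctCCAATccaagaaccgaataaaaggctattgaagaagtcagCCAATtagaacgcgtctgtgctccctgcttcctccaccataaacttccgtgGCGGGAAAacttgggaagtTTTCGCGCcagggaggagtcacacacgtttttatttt
Cdk4, chr7:64771203-64771502, plus strand: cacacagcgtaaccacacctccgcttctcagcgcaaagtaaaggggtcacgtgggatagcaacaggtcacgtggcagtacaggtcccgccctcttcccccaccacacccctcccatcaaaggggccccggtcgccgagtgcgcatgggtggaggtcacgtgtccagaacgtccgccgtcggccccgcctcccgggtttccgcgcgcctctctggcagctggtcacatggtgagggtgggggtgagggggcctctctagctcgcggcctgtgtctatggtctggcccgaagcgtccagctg
Cdc20, chr5:137255750-137256049, minus strand: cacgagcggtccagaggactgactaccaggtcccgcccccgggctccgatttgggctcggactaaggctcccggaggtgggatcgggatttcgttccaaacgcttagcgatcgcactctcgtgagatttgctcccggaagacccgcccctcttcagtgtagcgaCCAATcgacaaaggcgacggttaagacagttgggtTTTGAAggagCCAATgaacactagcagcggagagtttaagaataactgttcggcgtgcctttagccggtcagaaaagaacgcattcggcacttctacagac
Cdk1, chr20:19265043-19265342, plus strand: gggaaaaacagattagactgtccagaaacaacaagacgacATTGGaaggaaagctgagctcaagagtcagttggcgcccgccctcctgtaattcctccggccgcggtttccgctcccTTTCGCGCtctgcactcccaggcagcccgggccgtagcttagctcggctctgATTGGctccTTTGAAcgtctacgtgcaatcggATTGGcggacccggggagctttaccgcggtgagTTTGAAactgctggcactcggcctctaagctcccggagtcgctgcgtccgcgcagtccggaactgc

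The arrays of the groups differed in brightness. Before scaling, the 75th percentile of probe signal lay between 270.6 and 317.2 on colistin arrays and between 156.1 and 196.5 on saline arrays, and 77.2% to 81.9% of named probes were well above background on colistin arrays against 67.6% to 74.0% on saline arrays. Levels below are log2 signal relative to each array's 75th percentile, and a change of 1 is a doubling. The arrays lay on 3 slides: slide 1 held colistin array 2 with saline arrays 1 and 4, slide 2 held colistin array 3 with saline array 2, and slide 3 held colistin arrays 1 and 4 with saline array 3. With 4 arrays per group, precision is limited by their number.

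No member passed the test across all genes. Of the 32 members tested, 0 were higher and 0 were lower in colistin kidneys by limma at an adjusted p under 0.05 (Benjamini-Hochberg over 12366 genes), where 2.01% of all genes changed, 1.47% higher and 0.542% lower (73.1% of those called were higher, but 20.4% with normexp background correction). The smallest adjusted p was 0.0712, for Tpx2. At an unadjusted p under 0.05 there were 9 members, all with a positive fold change, or 9 of 32 against 22.7% of all genes. The share of all genes counts both directions, so it is no measure for the direction of the 9. Of the 9, Tpx2, Plk1 and Aurka were kept through colistin arrays alone. The 4 colistin values lay wholly above the saline values in 5 members (Cdk4, Cdk2, Mcm7, Rrm2 and Tpx2), 15.6% of those tested against 6.91% of all genes. They lay wholly below in 1 member, Cdc20, 3.12% against 11.7% of all genes. The members were noisy: the median standard error of their log2 fold changes was 0.862, against 0.556 over all genes, and their median SD was 0.915 over colistin arrays and 1.49 over saline arrays, against 0.59 and 0.841 over all genes.

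**Figure D1:**
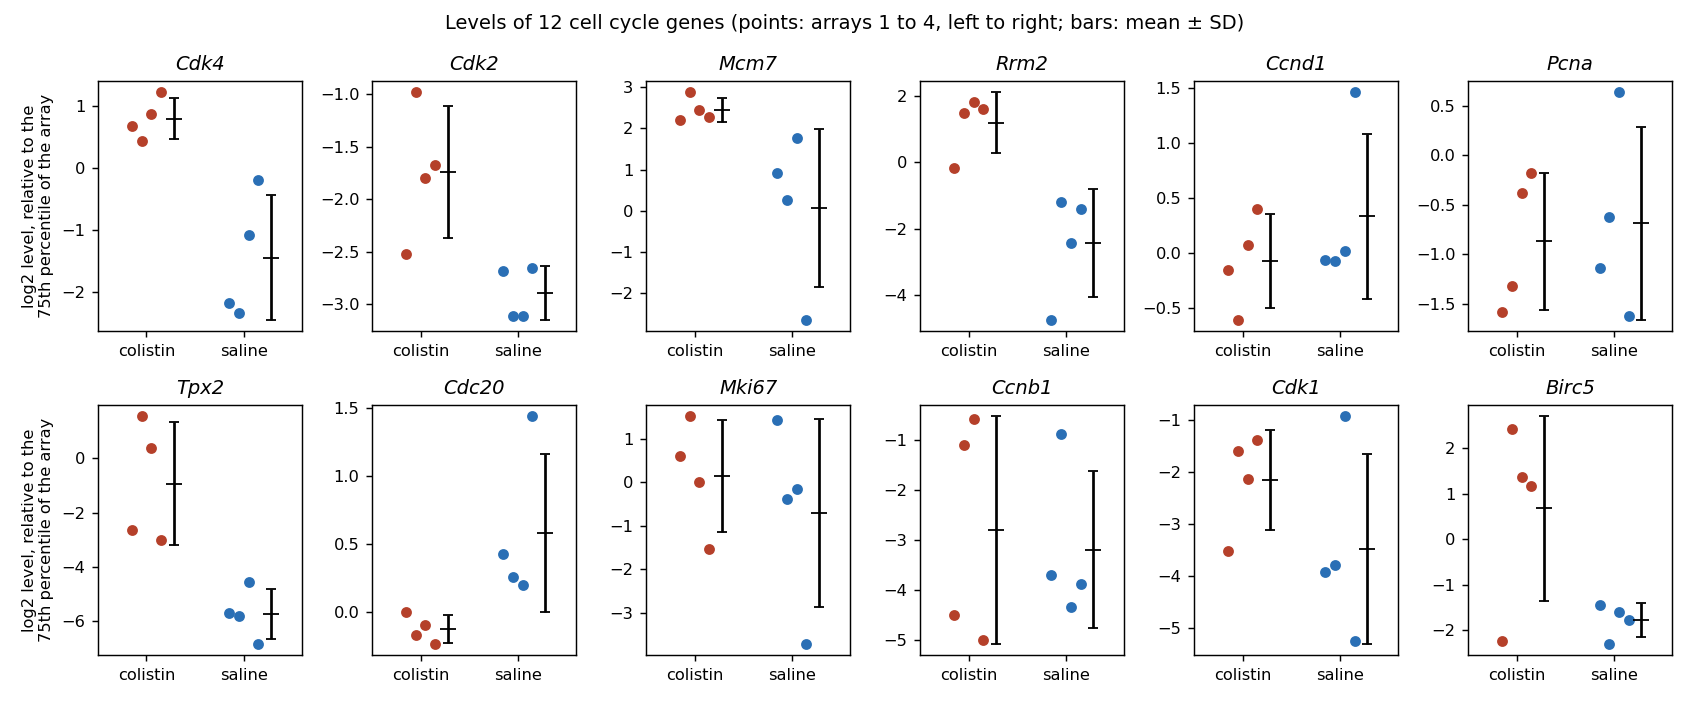
Each panel plots the log2 level of a gene relative to the 75th percentile of the array, for colistin arrays 1 to 4 (red) and saline arrays 1 to 4 (blue), with the mean ± SD of each group as a bar. The groups do not overlap for Cdk4, Cdk2, Mcm7, Rrm2, Tpx2 and Cdc20, and they overlap for the other genes drawn.

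Among the G1 cyclins and their kinases, the colistin values lay above the saline values for both kinases and for no cyclin. Cdk4, the kinase partner of D-type cyclins, had levels of 0.68, 0.43, 0.87 and 1.23 on colistin arrays 1 to 4, against -2.18, -2.34, -1.09 and -0.19 on saline arrays 1 to 4. All colistin arrays lay above all saline arrays, and the colistin values were close to each other. The log2 fold change was 2.25 ± 0.52 (SE, n = 4 per group), or 4.76-fold (limma adjusted p = 0.0742), and without saline array 4 it passed, at 2.67 (adjusted p = 0.0294), in a fit that called 1.53% of genes higher and 0.526% lower. With normexp background correction it passed too, as did Mcm4, Mcm7 and Rrm2 in the same direction (4 of 32 members, against 5.51% of all genes). Cdk2, which acts with cyclins E and A, had levels of -2.52, -0.98, -1.80 and -1.67 on colistin arrays, against -2.69, -3.12, -3.11 and -2.66 on saline arrays. The groups were separated by a narrow gap, between colistin array 1 and saline array 4, and the fold change was 1.15 ± 0.38 (adjusted p = 0.15).

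Ccnd1, which encodes cyclin D1, had levels of -0.16, -0.61, 0.07 and 0.40 on colistin arrays, against -0.07, -0.08, 0.01 and 1.46 on saline arrays. The groups overlapped, saline array 4 stood above the rest, and the fold change was -0.41 ± 0.44 (adjusted p = 0.6), with a 95% interval from -1.42 to 0.61. Ccnd2 and Ccnd3, the other D-type cyclin genes, had fold changes of -0.50 and -1.65, and the cyclin E2 gene Ccne2 had -1.61 (adjusted p = 0.832, 0.283 and 0.48). Their groups overlapped. Ccne2 was above background on 2 of 4 colistin arrays and 3 of 4 saline arrays, and the cyclin E1 gene Ccne1 was too dim to test, being above background on 2 colistin arrays and 1 saline array.

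The MCM helicase genes did not share a direction. MCM2 to MCM7 form the ring that unwinds DNA at origins. Mcm7 had levels of 2.20, 2.87, 2.44 and 2.28 on colistin arrays, against 0.91, 0.26, 1.77 and -2.64 on saline arrays. The colistin values were tight and lay above all saline values, while saline array 4 was far below the other saline arrays. The fold change was 2.37 ± 0.87 (adjusted p = 0.173), and 1.46 ± 0.43 without saline array 4 (adjusted p = 0.13).

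Mcm4 had a similar difference (2.22 ± 0.92, adjusted p = 0.206), but saline array 1 lay among the colistin values, and without saline array 4 it was 1.29. Mcm2 had levels of -2.97, -4.44, -3.69 and -2.31 on colistin arrays, against -2.11, -2.78, -3.10 and -2.98 on saline arrays. The groups overlapped and the fold change was -0.61 ± 0.50 (adjusted p = 0.478). Mcm3 and Cdt1, the licensing factor that loads the ring, had fold changes of -0.57 ± 0.34 and -0.94 ± 0.41 (adjusted p = 0.339 and 0.223). With normexp both passed, at -0.55 and -0.64 (adjusted p = 0.0441 and 0.0417), where 21.5% of all genes were lower. Mcm6 was above background on no array, and Cdc6, which loads the ring with Cdt1, on 1 colistin array and no saline array.

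A second probe of Mcm3 gave the opposite result, which was noticed only after its values were seen. On that probe the levels were -2.29, -2.36, -1.02 and -2.21 on colistin arrays, against -3.87, -7.54, -5.92 and -7.15 on saline arrays. Its groups did not overlap, and it was detected on 4 of 4 colistin arrays but on 1 of 4 saline arrays. With every kept probe fitted on its own (14563 probes, of which 1.54% were higher and 0.508% lower), it rose by 4.16 ± 0.80 (adjusted p = 0.0446) and was the 1 call among 40 member probes. The probe used for the gene, which had the higher mean over the 8 arrays, gave -0.57. Both probes carry the same transcript accession, and their sequences were not used here. In all, 7 members had more than 1 kept probe, and for 3 of them (Mcm3, Cenpf and Prc1) the probes differed in sign.

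Among genes of the sliding clamp and nucleotide supply, Rrm2 was the one whose groups did not overlap. Rrm2, the subunit of ribonucleotide reductase that is made in S phase, had levels of -0.17, 1.48, 1.82 and 1.6 on colistin arrays, against -4.74, -1.19, -2.42 and -1.41 on saline arrays. All colistin arrays lay above all saline arrays, with colistin array 1 the lowest of its group. The fold change was 3.62 ± 0.83, or 12.3-fold (adjusted p = 0.0759). A second Rrm2 probe, above background on 3 colistin arrays and 1 saline array, gave 0.74 ± 1.59.

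Rrm1, the large subunit, and Tyms, which makes thymidylate, had fold changes of 2.62 ± 1.91 and 1.80 ± 0.79 (adjusted p = 0.425 and 0.223), and each was above background on 2 of 4 saline arrays. Neither direction was stable: Tyms was -0.24 with normexp, and Rrm1 was 0.61 with normexp, 1.29 to 4.01 with 1 array left out, and -0.66 without saline arrays 1 and 4 together. Pcna, the replication clamp, had levels of -1.58, -1.32, -0.38 and -0.18 on colistin arrays, against -1.14, -0.62, 0.64 and -1.62 on saline arrays. The groups overlapped almost fully (-0.18 ± 0.57, adjusted p = 0.868). The 95% interval, from -1.48 to 1.12, leaves room for a doubling in either direction.

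Mitotic cyclins and kinases ranged widely within both groups. Ccnb1, which encodes cyclin B1, had levels of -4.51, -1.10, -0.58 and -4.99 on colistin arrays, against -3.69, -0.88, -4.34 and -3.87 on saline arrays. Colistin arrays 2 and 3 and saline array 2 were high and the other 5 arrays low, so that the groups overlapped (0.40 ± 1.21, adjusted p = 0.862). Cdk1, the kinase that drives entry into mitosis, had levels of -3.53, -1.61, -2.13 and -1.39 on colistin arrays, against -3.92, -3.80, -0.93 and -5.25 on saline arrays. The highest value was on saline array 3, and the fold change was 1.31 ± 0.91 (adjusted p = 0.406).

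Plk1 and Aurka, kinases of spindle assembly, had fold changes of 3.25 ± 1.16 and 2.05 ± 0.59 (adjusted p = 0.167 and 0.119). Each was detected on every colistin array but, among saline arrays, on array 2 only, so the size of each fold is uncertain. With normexp background correction Aurka was -0.16, a turned sign, and Plk1 was 0.99. Saline array 2 had the highest Plk1 value of all 8 arrays (0.25). Without it Plk1 passed (adjusted p = 0.0106, in a fit that called 1.23% of genes higher and 0.218% lower), but against 3 saline arrays that were all below background, so no size is given. Ccna2, which encodes cyclin A2, and Aurkb, the kinase of the chromosomal passenger complex, had 0.34 ± 0.99 and -0.50 ± 0.86. Ccnb2 was above background on 2 colistin arrays and no saline array, and Cdkn3, a phosphatase that acts on CDKs, on no array.

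Genes of the spindle checkpoint and of anaphase ubiquitination did not share a direction. Cdc20, the activator of the anaphase-promoting complex whose promoter is shown above, had levels of 0.0010, -0.17, -0.09 and -0.23 on colistin arrays, against 0.42, 0.26, 0.20 and 1.44 on saline arrays. All colistin arrays lay below all saline arrays, in a difference of -0.70 ± 0.35 (adjusted p = 0.268). Ube2c, the ubiquitin-conjugating enzyme of the same complex, had 1.84 ± 1.14, and the checkpoint kinase gene Bub1 had 1.57 ± 1.62 (adjusted p = 0.352 and 0.577). Bub1 was above background on 3 colistin arrays and 1 saline array.

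Among proteins of chromosomes, spindle and cytokinesis, Tpx2, which activates Aurora A on the spindle, was not detected in saline kidneys. Its levels were -2.65, 1.56, 0.39 and -3.01 on colistin arrays, against -5.71, -5.81, -4.58 and -6.84 on saline arrays. It was well above background on 4 of 4 colistin arrays and on 0 of 4 saline arrays, and the groups did not overlap. Its mean level was -0.93 on colistin arrays and -5.73 on saline arrays, a log2 fold change of 4.81 (limma adjusted p = 0.0712). For a bound, each saline value below the lowest signal well above background on its array was raised to that signal. Against these values Tpx2 was 17-fold higher, a figure that was not tested. The 17-fold figure leaves out the spread between arrays and holds for this background correction only. With normexp the log2 difference was 1.28, below the 1.81 of Birc5.

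Mki67, which encodes the proliferation antigen Ki-67, had levels of 0.60, 1.52, -0.0024 and -1.55 on colistin arrays, against 1.43, -0.38, -0.15 and -3.71 on saline arrays. The groups overlapped, since saline array 1 was as bright as the brightest colistin array to within 0.1, and the fold change was 0.85 ± 1.10 (adjusted p = 0.664). The other 2 probes of Mki67 gave 1.2 ± 1.41 and 1.32 ± 0.72, and none of the 3 passed.

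Birc5, which encodes survivin of the chromosomal passenger complex, had levels of -2.24, 2.43, 1.36 and 1.18 on colistin arrays, against -1.44, -2.29, -1.59 and -1.76 on saline arrays. Colistin arrays 2, 3 and 4 lay far above the saline arrays and colistin array 1 among them (2.45 ± 0.92, adjusted p = 0.179). Without colistin array 1 it rose by 3.43 ± 0.44 (adjusted p = 0.0259), in a fit that called 0.639% of genes higher and 0.154% lower. The spindle and cytokinesis genes Kif11, Kif20a, Nusap1, Prc1 and Cenpf had fold changes from -0.70 to 0.83, with adjusted p-values of 0.27 or more. The Nusap1 value of -0.03 turned positive with quantile or median scaling.

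**Figure D2:**
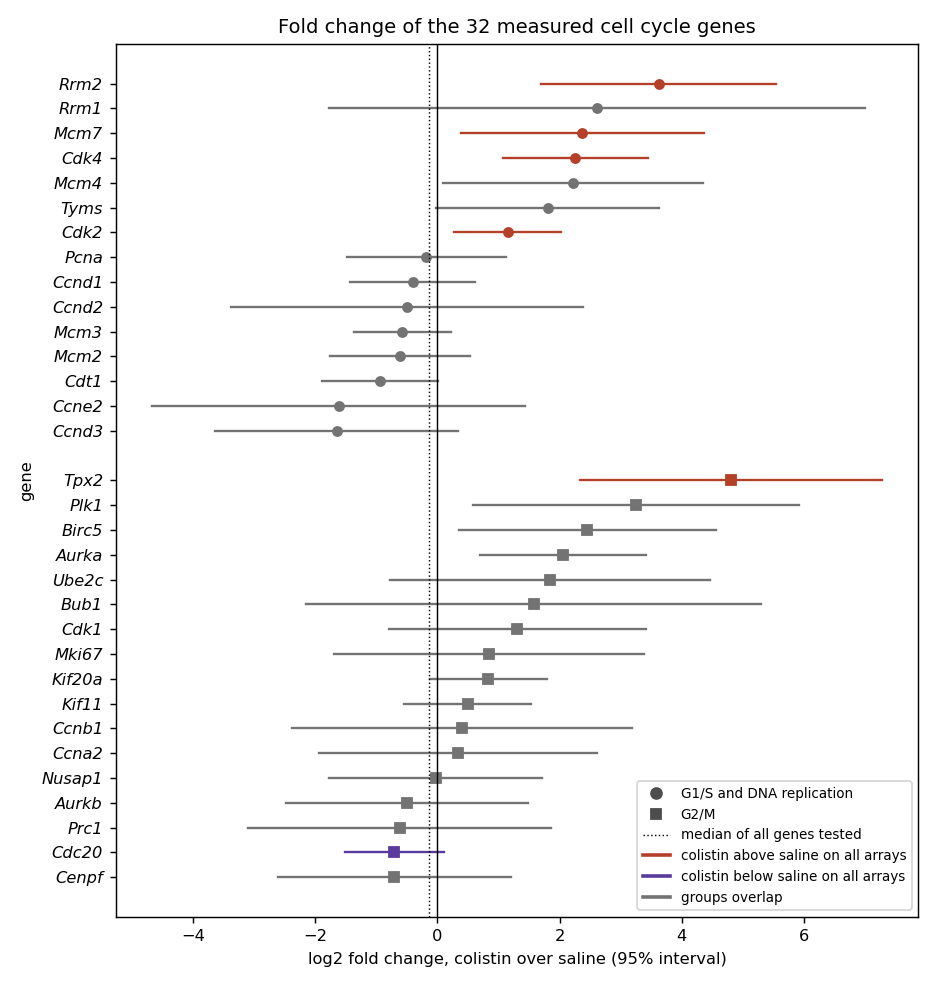
Log2 fold changes, colistin over saline, of the 32 members tested, with 95% intervals from limma, for 15 G1/S and replication genes (circles) and 17 G2/M genes (squares). Red marks genes whose 4 colistin values all lie above the saline values, purple the reverse, and the dotted line is the median of all genes tested (-0.14). The Tpx2 point rests on saline signal below background.

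For the 15 G1/S and replication members the fold changes had a median of -0.18, with 7 positive and 8 negative. This median was the value of Pcna, and the next value above it was 1.15, for Cdk2. For the 17 G2/M members the median was 0.83, with 12 positive and 5 negative. The median over all 12366 genes was -0.14, with 5586 positive and 6780 negative. The filter on dim probes bears on these medians, since 6 members (Rrm1, Tyms, Plk1, Aurka, Bub1 and Tpx2) were kept through colistin arrays alone and Ccne2 through saline arrays alone. Among the 22 members above background on all 8 arrays, 11 were positive and 11 negative, with medians of -0.29 for 12 G1/S genes and 0.37 for 10 G2/M genes, against -0.25 for all such genes. With normexp background correction the medians were -0.24 and -0.05, against -0.34 for all genes. With the probes of a gene averaged they were 1.15 and 1.12, against -0.12 for all genes, so the difference between them depended on the probe rule. With 1 array left out the G1/S median ranged from -0.41 to 0.41 and the G2/M median from 0.39 to 1.13, so the sign of the G1/S median was not stable. None of these medians was tested. With slide as a block the fold changes of the separated members other than Tpx2 were 2.21 for Cdk4, 1.35 for Cdk2, 2.12 for Mcm7, 3.61 for Rrm2 and -0.61 for Cdc20, and the smallest adjusted p of any member was 0.143.

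**Figure D3:**
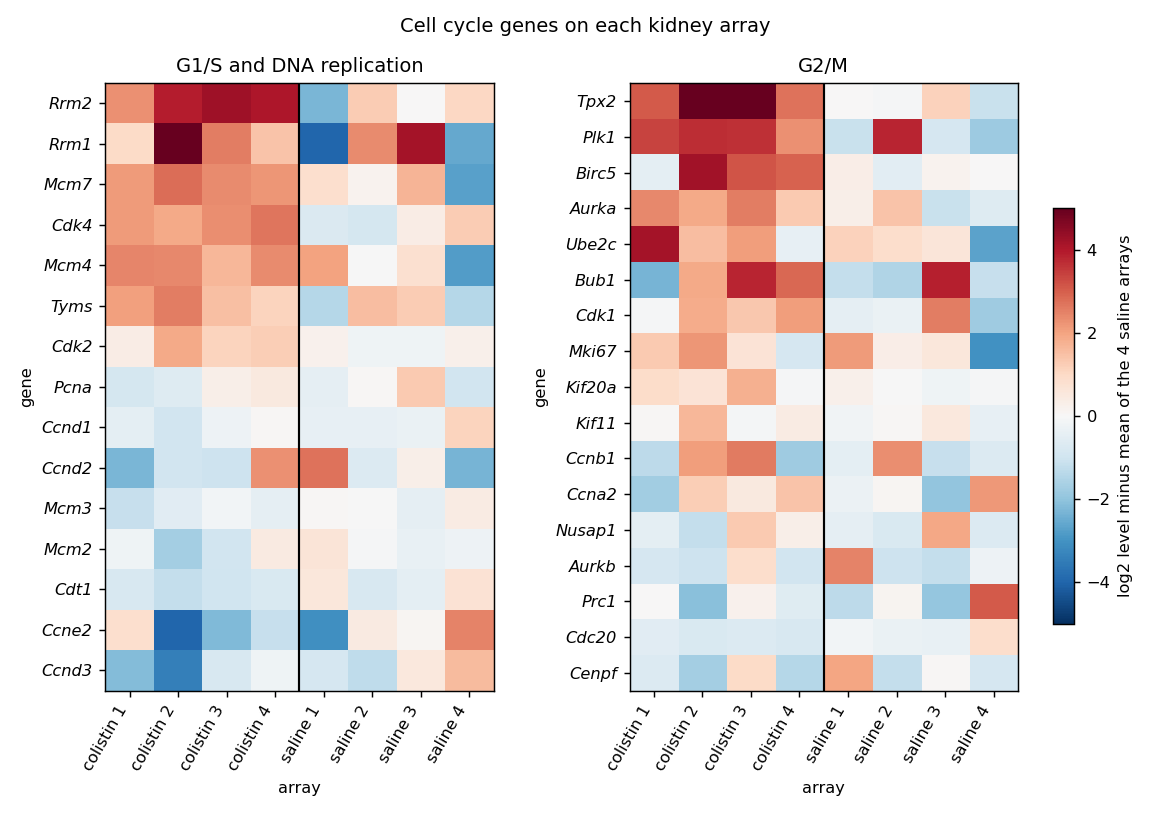
Log2 level of each member on each array minus its mean over the 4 saline arrays, with G1/S and replication genes on the left and G2/M genes on the right, ordered by fold change. Colistin arrays stand left of the black line and saline arrays right of it, and the colours are held at -5 and 5, which Tpx2 exceeds on colistin arrays 2 and 3 and Rrm1 on colistin array 2.

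Array by array, the colistin arrays ranked differently in the medians of the G2/M and G1/S members. The medians are taken from each gene's saline mean, which draws those of saline arrays toward 0. They therefore do not compare the spread of the groups. Gene by gene, the median SD of the members was 0.915 over colistin arrays and 1.49 over saline arrays. Relative to the saline mean of each gene, the median of the G2/M members was -0.05, 1.64, 1.34 and 0.30 on colistin arrays 1 to 4, against -0.16, -0.03, 0.07 and -0.68 on saline arrays 1 to 4. Colistin arrays 2 and 3 were high, while colistin array 1 was near the saline level. The median of the G1/S members was 0.37, -0.56, 0.30 and 1.11 on colistin arrays, against -0.40, -0.04, 0.28 and 0.23 on saline arrays. Here colistin array 4 was the highest and colistin array 2 the lowest. The median over all genes stayed between -0.28 and -0.07 on colistin arrays and between -0.08 and 0.08 on saline arrays.

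Colistin arrays 1 and 4, which were lower in the G2/M members, share slide 3 with saline array 3, whose G2/M median was 0.07. The part of the slide in the difference between colistin arrays was not tested. Colistin minus saline within slides 1, 2 and 3 gave a G2/M median of 2.07, 1.2 and 0.27 and a G1/S median of 0.06, 0.18 and 0.11. These medians lean on members dim in saline kidneys. Over the 10 G2/M members above background on all 8 arrays, the median was -0.49, 0.95, 0.83 and -0.34 on colistin arrays 1 to 4, against -0.17, 0.0065, -0.07 and -0.22 on saline arrays 1 to 4. Colistin arrays 2 and 3 were again the highest and colistin arrays 1 and 4 were the lowest, and within slides 1, 2 and 3 the median was 0.43, 0.37 and -0.31. Over the 12 such G1/S members it was -0.36, -0.60, 0.08 and 0.86 on colistin arrays, against 0.14, -0.13, 0.15 and 0.33 on saline arrays. Within slides it was -0.37, 0.35 and 0.28. In the number of members detected, the G2/M genes showed 17, 18, 17 and 17 of 19 well above background on colistin arrays, against 13, 15, 13 and 11 of 19 on saline arrays. For the G1/S genes it was 15, 15, 15 and 16 of 18 on colistin arrays, against 12, 15, 16 and 13 of 18 on saline arrays. The share of all named probes above background was also higher on colistin arrays, as given above, and its part in these counts was not tested.

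**Figure D4:**
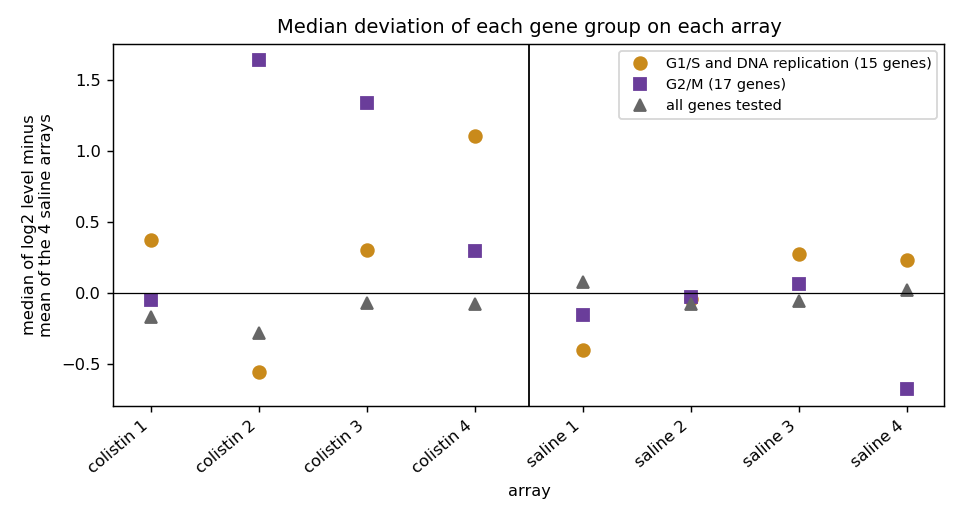
Points are the median, over the genes of each group, of the log2 level on an array minus the gene's mean over the 4 saline arrays. The G2/M median is 1.64 and 1.34 on colistin arrays 2 and 3 and lies between -0.68 and 0.30 on the other 6 arrays, and the G1/S median is highest, at 1.11, on colistin array 4.

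The wider cell cycle lists contained 87 genes tested, of which 3 rose in colistin kidneys and 0 fell, with 65 positive and 22 negative fold changes. That is 3.45% higher, against 1.47% of all genes higher and 0.542% lower, and 74.7% positive, against 45.2% of all genes. The filter on dim probes bears on these counts, and of the 3, Kif22 and Incenp were kept through colistin arrays alone. With normexp the 3 passed at smaller sizes, 1.8 for Lig1, 2.15 for Kif22 and 1.16 for Incenp. Among 28 further replication genes 1 rose, Lig1, the DNA ligase that joins Okazaki fragments. Its levels were 0.17, 1.17, 0.14 and 0.61 on colistin arrays, against -1.74, -2.11, -3.10 and -3.21 on saline arrays. The groups were well apart, and Lig1 rose by 3.06 ± 0.45, or 8.35-fold (adjusted p = 0.0181). It lost the call without colistin array 2 or 4 (adjusted p = 0.0516 and 0.0594) and with slide as a block (adjusted p = 0.0782). With same-numbered arrays as a block it lost the call too (adjusted p = 0.0957).

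Among 30 further mitosis genes 2 rose. Kif22, a kinesin that binds chromosomes, had levels of 0.85, -0.61, 0.01 and 1.2 on colistin arrays, against -4.03, -5.70, -3.77 and -4.88 on saline arrays. It rose by 4.96 ± 0.57 (adjusted p = 0.00798) and was above background on 2 of 4 saline arrays. Its call held whichever array was dropped and when slides were blocked, but not with same-numbered arrays as a block (adjusted p = 0.0727). Incenp, the scaffold of the chromosomal passenger complex, had levels of -2.47, -0.35, -0.99 and -1.18 on colistin arrays, against -4.22, -7.53, -6.99 and -6.68 on saline arrays. It rose by 5.11 ± 0.77 (adjusted p = 0.0202) from a saline level above background on 1 of 4 arrays, so its size is uncertain. It lost the call without colistin array 2, 3 or 4 (adjusted p = 0.0603, 0.0637 and 0.0627), and with slide as a block (adjusted p = 0.0561). With same-numbered arrays as a block it lost the call too (adjusted p = 0.122). The median fold change was 0.86 over the replication list, 0.91 over the mitosis list and 0.52 over 29 genes of cell cycle control. The filter on dim probes bears on these medians too. Over genes above background on all 8 arrays they were 0.70 (15 replication genes), 0.12 (12 mitosis genes) and 0.18 (20 control genes). Over all such genes the median was -0.25.

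None of the 29 control genes passed. Foxm1, a factor that turns on mitotic genes, had levels of -1.26, 0.44, -2.57 and -1.86 on colistin arrays, against -5.19, -6.55, -2.48 and -6.30 on saline arrays. It was above background on 1 of 4 saline arrays, saline array 3, where it was higher than on colistin array 3 (3.82 ± 1.0, adjusted p = 0.0976). Without saline array 3 it passed (adjusted p = 0.0365), but against 3 saline arrays that were all below background, and with normexp it was 0.86 (adjusted p = 0.153). Myc, a growth-promoting factor, had levels of 0.84, 0.26, 0.62 and -1.28 on colistin arrays, against -3.19, -1.31, -2.65 and -2.88 on saline arrays. A narrow gap, between colistin array 4 and saline array 2, kept the groups apart (2.62 ± 0.59, adjusted p = 0.0736).

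The inhibitor gene Cdkn1b, which encodes p27, had levels of -1.13, -1.17, -2.25 and -1.14 on colistin arrays, against -2.35, -2.24, -1.47 and -4.29 on saline arrays, and the groups overlapped (1.17 ± 0.62, adjusted p = 0.288). E2f1, a founding E2F factor, had levels of -3.65, -1.68, -3.69 and -3.96 on colistin arrays, against -2.92, -3.65, -3.36 and -3.22 on saline arrays. Colistin array 2 stood above all other arrays (0.04 ± 0.53, adjusted p = 0.971). Mybl2, which encodes B-MYB, had levels of -3.97, -3.67, -1.78 and -3.90 on colistin arrays, against -2.38, -3.41, -3.37 and -3.44 on saline arrays. Colistin array 3 and saline array 1 were high (-0.18 ± 0.55, adjusted p = 0.867), and both genes changed sign under some settings.

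Cdkn1a, which encodes the p53-induced CDK inhibitor p21, had probes that disagreed. The probe used for the gene had levels of 4.10, 3.92, 4.08 and 4.16 on colistin arrays, against 4.83, 4.63, 4.00 and 4.43 on saline arrays. These values were close, the groups overlapped, and the fold change was -0.41 ± 0.29 (adjusted p = 0.414). The other probe had levels of 4.83, 3.92, 3.81 and 4.21 on colistin arrays, against -2.88, -3.87, -3.03 and -3.10 on saline arrays. On it the groups were far apart and every array was well above background. Fitted on its own, this probe rose by 7.42 ± 0.37 (adjusted p = 0.000149), the 3rd smallest p among 14563 probes. Both carry the same transcript accession and the files give no probe sequence, so which one follows the transcript was not tested. With the probes averaged, Cdkn1a gave 3.5 ± 0.29 (adjusted p = 0.0022).

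**Figure D5:**
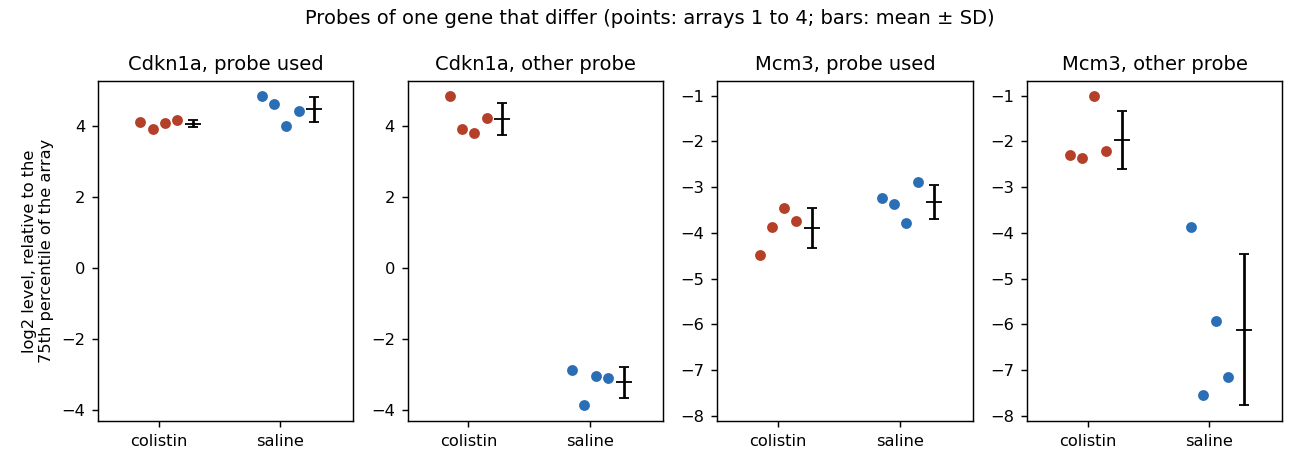
Log2 levels on the pair of kept probes of Cdkn1a and of Mcm3, relative to the 75th percentile of the array, for colistin arrays (red) and saline arrays (blue), with mean ± SD bars and a common axis per gene. For Cdkn1a the probe used lies between 3.92 and 4.83 on all 8 arrays, while the other lies between 3.81 and 4.83 on colistin arrays and between -3.87 and -2.88 on saline arrays.

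Marker lists of other cells differed in how far they separated the groups. In all genes 1.47% were higher, 0.542% lower and 45.2% positive. Injured tubule markers had 5 positive and 3 negative values of 8 tested with a median of 0.6, and 2 rose: Havcr1, which encodes kidney injury molecule 1, by 4.48 ± 0.48 (adjusted p = 0.00629) and Spp1, which encodes osteopontin, by 5.70 ± 0.53 (adjusted p = 0.00352). Their median deviation from the saline mean was 0.16 to 1.23 on colistin arrays and -0.23 to 0.40 on saline arrays. Endothelial markers were negative in 6 of 6 genes and 4 fell, with a median deviation from the saline mean of -3.41 to -2.33 on colistin arrays and -0.28 to 0.25 on saline arrays. Macrophage markers were negative in 6 of 6 genes and 1 fell (-2.08 to -0.72 on colistin arrays and -0.30 to 0.09 on saline arrays). Lymphocyte markers were negative in 4 of 4 genes and 1 fell, with the T cell genes Cd3e and Cd8a too dim to test. Fibroblast and smooth muscle markers were negative in 6 of 6 genes and 0 fell. Proximal tubule markers had 3 positive and 5 negative values with 2 falls. Markers of the thick ascending limb and distal tubule were negative in 6 of 6 genes and 1 fell. They were lowest on colistin array 1, at a median of -6.88 against -1.71 to -1.17 on the other 3. The part of all these cell types in the values of the cell cycle genes was not tested. In bulk RNA fewer cells of a type and less RNA per cell cannot be told apart.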

How the data were processed

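The authors deposited spot intensities of each array; the submitters' processing notes name Agilent Feature Extraction 10.5. Per the file headers' statistics, spots were background-subtracted and detrended within the array. From the values, arrays were not scaled to each other. The deposited table of the series holds log2 values whose scale and centring no source states; between-array differences in it and in the scanner values correlated at 0.999996 or above, its column medians were -0.230 to -0.0327 for colistin and 0.0232 to 0.233 for saline arrays, and it served as an alternative. Flags and other deposited columns were used as the software wrote them.

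Outlier spots (257 to 461 per array) and controls were left out, and no spot was saturated. Log2 values of a probe's spots were averaged, scaled to the 75th percentile of the array, and kept when flagged well above background by at least 3 arrays in a group. Probes were named through RefSeq accessions in a table of GRCr8, used for names and promoter windows only (18635 of 30367 probes, 15631 genes). The array design is annotated on an older build. The kept probe with the highest mean stood for a gene. Groups came from the sample titles. limma 3.58.1 under R 4.3.3 (lmFit, eBayes, two-sided, Benjamini-Hochberg) compared them, and the fit was tested on simulated data. The normexp alternative used median spot signals in place of the planned mean signals. Slide and replicate blocks, other scalings, filters and probe rules, and leaving out arrays were also tried.

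The members and lists were chosen with earlier results of these data known. Array values are given for members that passed or did not overlap and for a fixed set (Mki67, Pcna, Ccnd1, Cdk4, Mcm2, Rrm2, Top2a, Cdk1, Ccnb1), and in other lists for passing genes and Cdkn1a, Cdkn1b, E2f1, Foxm1, Mybl2 and Myc; those of Birc5 and of single probes were added after their values were seen.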

Additional observations from a re-analysis of the deposited data

Results flagged for a closer look

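In a group of 4, a value was singled out when its gap to the nearest other value exceeded Dixon's 95% critical share of the range. Chance does so in about 1 in 20 groups, and here it happened in 11 of 82 groups (13.4%), against 6.52% over all genes. Among colistin arrays, Mcm4 was lowest on array 3 (-0.0028, next 0.72), Rrm2 was lowest on array 1 (-0.17, next 1.48) and Cdkn1b was lowest on array 3 (-2.25, next -1.17). Still among colistin arrays, Aurkb was highest on array 3 (-2.25, next -3.96), E2f1 on array 2 (-1.68, next -3.65) and Mybl2 on array 3 (-1.78, next -3.67). Among saline arrays, Ccnd1 was highest on array 4 (1.46, next 0.01), Bub1 on array 3 (-2.17, next -7.19), Nusap1 on array 3 (-1.49, next -3.86) and Mybl2 on array 1 (-2.38, next -3.37). Ube2c was lowest on saline array 4 (-6.92, next -3.66).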

How the results depend on the processing

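Over all genes 249 changed, 182 higher and 67 lower (73.1% higher); the count was 3345 with normexp (20.4% higher; 5.51% of genes higher and 21.5% lower), 40 with slide as a block (87.5% higher), 141 without saline arrays 1 and 4 together, and 78 to 254 with 1 array left out. Over probes above background on all arrays 59.3% of calls were higher. Same-numbered arrays did not deviate together (r of -0.0202 to 0.0119 across genes, over 4 pairs), and the main fit did not pair them. So few pairs cannot exclude that the samples were matched. The replicate block left 5 calls, none of them members. Members higher numbered 4 with normexp (Cdk4, Mcm4, Mcm7 and Rrm2), 1 when each probe was fitted on its own, and 0 to 1 with 1 array left out (Plk1, Cdk4 and Birc5 without saline array 2, saline array 4 and colistin array 1). Members lower numbered 2 with normexp (Cdt1 and Mcm3) and 0 otherwise. The G2/M median was -0.051 with normexp, and the G1/S median 1.15 with the probes of a gene averaged, where the G2/M median was 1.12. With 1 array left out the G1/S median ranged from -0.41 to 0.41. Over the other cell cycle lists the count, 3 in the main setting, was 16 with normexp, 1 with only probes above background on all arrays, 1 with slide as a block, 0 with the replicate block, 5 without saline arrays 1 and 4 together, and 1 to 6 with 1 array left out.

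Of the 32 members, 14 changed sign in at least 1 setting. With normexp these were Aurka (-0.16), Tyms (-0.24), Bub1 (-0.27), Ccna2 (-0.051) and Ccnb1; with the probes of a gene averaged, Mcm3 (1.79), Cenpf (0.50) and Prc1 (1.12); with quantile or median scaling, Nusap1; without saline arrays 1 and 4 together, Rrm1 (-0.66), Aurkb (0.61), Prc1 (0.27) and Ccnb1; and with 1 array left out, 8 (Ccnd2, Nusap1, Pcna, Ccnb1, Ccna2, Aurkb, Mki67 and Prc1). Among genes named by rule, signs turned for Cdkn1a with its probes averaged (3.5) or its other probe (7.42); for Ccnb1 (-0.058) and E2f1 (-0.31) with normexp; and for Ccnb1 (-0.18) and Mybl2 (0.063) without saline arrays 1 and 4 together. With 1 array left out Ccnb1 ranged from -0.34 to 1.17, E2f1 from -0.48 to 0.28, Mybl2 from -0.70 to 0.079, Mki67 from -0.16 to 1.56 and Pcna from -0.49 to 0.26. The cause was not tested, although the other settings than normexp and scaling use fewer arrays or other probes. Of the 14 members, Aurka, Tyms, Bub1, Rrm1 and Aurkb were not well above background on every array. The others were, on the probe used for the gene. The part of dim signal in the turned signs was not tested.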

Other observations

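Among the 87 genes of the wider lists, the colistin values lay wholly above the saline values in 11 (12.6%, against 6.91% of all genes) and wholly below in 1 (1.15%, against 11.7%). The filter on dim probes bears on these counts as well. Of the 11, 8 did not pass: Myc, Orc2, Pola2, Pold1, Fen1, Spc25, Cks2 and Anapc2. The values that follow were picked after they were seen. Cks2, a CDK subunit, gave 3.96 ± 1.05 (adjusted p = 0.0995), the origin recognition gene Orc2 gave 2.62 ± 0.75 (adjusted p = 0.117), and Fen1, the nuclease that trims Okazaki fragments, gave 3.0 ± 0.86 (adjusted p = 0.12). A second kept probe of Orc2, fitted on its own, gave 1.63 ± 1.31 (adjusted p = 0.476), and its groups overlapped. The kinesin gene Kif23, which acts in cytokinesis, lay lower on all colistin arrays (-0.82 ± 0.30, adjusted p = 0.172). Ccng2, an atypical cyclin gene, had kept probes that pointed opposite ways when fitted on their own, at -2.41 ± 0.75 and 2.27 ± 0.93 (adjusted p = 0.138 and 0.21).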
